A study of Rattus norvegicus with 10 samples.

Results

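TCONS_00071634 and TCONS_00071780 are long noncoding RNAs (lncRNAs) that the authors assembled from the reads of this study, and they are 2 of 1924 such lncRNAs and of 32166 transcripts in all with a deposited level. They were chosen by their measured values, namely a mean level near 20 FPKM and changes of opposite direction between the hemispheres, so their levels and changes are given as a description and no test is made of them. The data were RNA sequencing libraries of brain tissue from both hemispheres of 5 male Sprague Dawley rats (P45, P52, P61, P71 and P72), with 10 libraries. The middle cerebral artery had been blocked with a suture for 2 hours (MCAO), and the suture was then removed so that blood flowed again. The rats were killed 24 hours after MCAO, which the study also describes as 24 hours of reperfusion. Rats with a score of 2 on its scale of neurological deficit were used. Each rat gave a left and a right library, and every rat had been operated, so the control is the other hemisphere of an injured brain and not the brain of a rat without surgery. The labels give the side only. Here right is read as ischemic and left as nonischemic because the drawing of the surgery shows the suture on the right and because TCONS_00068312, an lncRNA that the study describes as raised by ischemia, has a negative sign among its left/right ratios, which places the higher level on the right. Against this, the deficit scale of the study scores the right paw and turning rightward, signs of a lesion on the left. If the sides were exchanged, every change below would have the opposite sign. The methods of the study give tissue of each hemisphere from the middle coronal slices, and its introduction states that cortex was profiled.

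An lncRNA is an RNA of more than 200 bases that is not translated into a protein. Some lncRNAs act on chromatin near their own gene, others bind proteins, pair with mRNAs or compete with them for miRNAs, and for most no function is known. In a brain after stroke, neurons in the territory of the blocked artery die, while glia react and blood cells enter, so the RNA of a piece of tissue reflects both the state of its cells and which cells are left. In tissue libraries like these, fewer cells of a type and less RNA per cell cannot be told apart. No function of either lncRNA is given in the sources used here.

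Levels are in FPKM, the number of sequenced fragments of a transcript scaled to its exonic length and to the mapped fragments of the library, which can be compared between transcripts because it is per length. FPKM holds no read counts, so no counting interval can be given for a level. Relative depth was read from the ratio most often seen between a pair of libraries in transcripts with few reads, and on that basis the left libraries had from 63.4% to 100% of the greatest depth, with a median of 93.2%, and the right ones from 59.7% to 81.1%, with a median of 71.5%. By this indirect estimate the median depth was lower on the right, with overlapping ranges, and the part of depth in the results was not tested. When the libraries were divided into 2 clusters on all 20936 transcripts with a mean of at least 0.1 FPKM, 1 library, the right one of P71, lay with the other side. The left library of P61 also stood apart. Of 74 transcripts with a right excess of 3 or more (log2) on average over the other rats, 54 were at their highest left level in P61. For any other rat it was at most 18 of 85. The changes of both lncRNAs, of the transcripts that overlap TCONS_00071634 and of their sum and shares are therefore also given without P61 and without P71.

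Both lncRNAs lie on chromosome 3 of the rn5 build, on opposite strands and 69.51 Mb apart. Chromosome 3 holds 137 of the 1924 assembled lncRNAs. TCONS_00071634 lies on the minus strand at chr3:162946976-162955830 and TCONS_00071780 on the plus strand at chr3:93336873-93439485. The study states that it removed transcripts that overlap exons of known genes, and this was not checked here for either lncRNA. No annotation of rn5 was used here, so the genes around them are not named, and no sequence is printed for want of that genome.

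Most of each lncRNA is a single exon. TCONS_00071634 has 3 exons with a spliced length of 2165 nt, beginning with exons of 21 and 93 nt and ending, after an intron of 6373 nt, in a 3′ terminal exon of 2051 nt (162946976 to 162949026). That exon makes up 94.7% of its length. TCONS_00071780 has 4 exons and a spliced length of 2224 nt, and its long exon is at the other end. Its first exon (93336873 to 93338891) holds 2019 nt, or 90.8% of the transcript, and is followed by an intron of 98548 nt and by exons of 51, 98 and 56 nt. An exon with at least 90% of the length is found in 390 of the 1924 assembled lncRNAs (20.3%). Among all 1924 the largest exon was the 3′ terminal one in 56.3%, as in TCONS_00071634, and the 5′ terminal one in 30.8%, as in TCONS_00071780. The median of the longest intron was 6973 nt, close to that of TCONS_00071634, and 175 assembled lncRNAs (9.10%) had an intron at least as long as that of TCONS_00071780.

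**Figure D1:**
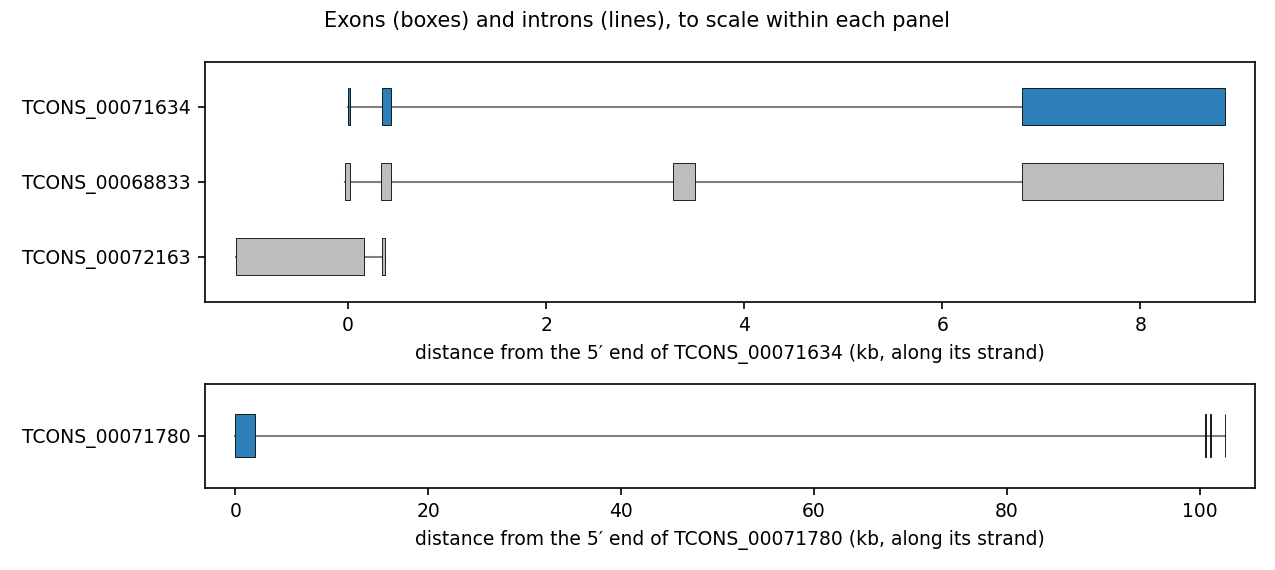
Exon maps of both lncRNAs (blue) and of the assembled transcripts that overlap TCONS_00071634 on its strand (grey), drawn from 5′ to 3′ against the distance from the 5′ end of each lncRNA in kb. Boxes are exons and lines are introns. The long exon is the last one in TCONS_00071634 (2051 nt) and the first one in TCONS_00071780 (2019 nt), which an intron of 98548 nt separates from 3 short exons.

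The lncRNAs also differed in their surroundings. Of the assembled lncRNAs, 2 overlap TCONS_00071634, both on its strand, and none overlaps TCONS_00071780 on either strand. The listed transcript nearest to TCONS_00071780, TCONS_00066944 on the same strand, is 297410 bases away. The nearest one outside the locus of TCONS_00071634 is TCONS_00074765, on the plus strand 41303 bases away. It had a mean of 1.58 FPKM over the 10 libraries, and TCONS_00066944 had 0.942 FPKM. On the other side the next listed transcripts were 1882186 bases from TCONS_00071634 (TCONS_00070110) and 4270949 bases from TCONS_00071780 (TCONS_00072067).

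TCONS_00071634 was higher in the ischemic hemisphere of every rat. Its levels in the nonischemic libraries were 20.1 FPKM in P45, 23.1 in P52, 22.2 in P61, 21.1 in P71 and 19.6 in P72. In the ischemic libraries they were 25.9 FPKM in P45, 28.5 in P52, 28.3 in P61, 28.7 in P71 and 27.7 in P72. The sides did not overlap, and the lowest ischemic library, that of P45, was 2.82 FPKM above the highest nonischemic one, that of P52. On average it was at 21.2 ± 1.43 FPKM (nonischemic) and 27.8 ± 1.14 FPKM (ischemic, mean ± SD of 5 libraries).

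On the scale of log2(FPKM + 0.1) the difference between the hemispheres of a rat, ischemic minus nonischemic, was 0.36 in P45, 0.30 in P52, 0.35 in P61, 0.44 in P71 and 0.49 in P72. The mean was 0.39 with an SD of 0.078 between rats, which is a 1.31-fold higher level. Without P61 it was 0.40 and without P71 it was 0.38. The SD of this difference between rats was smaller than its mean. A choice on the change favours such transcripts, so nothing is read from it.

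TCONS_00071780 was lower in the ischemic hemisphere of every rat. In the nonischemic libraries its levels were 25.5 FPKM in P45, 20.6 in P52, 23.8 in P61, 28.0 in P71 and 19.8 in P72. In the ischemic libraries they were 14.0 FPKM in P45, 16.0 in P52, 12.5 in P61, 13.1 in P71 and 15.3 in P72. Here too the sides did not overlap, with 3.79 FPKM between the highest ischemic library (P52) and the lowest nonischemic one (P72). On average it was at 23.5 ± 3.41 FPKM (nonischemic) and 14.2 ± 1.48 FPKM (ischemic, mean ± SD of 5 libraries).

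The difference of TCONS_00071780 within a rat was -0.86 in P45, -0.36 in P52, -0.93 in P61, -1.09 in P71 and -0.37 in P72 on the log2(FPKM + 0.1) scale. The mean was -0.72 with an SD of 0.34, which is a 1.65-fold lower level. Without P61 it was -0.67 and without P71, the rat with the largest difference, it was -0.63. P52 and P72 had the lowest nonischemic levels and the highest ischemic ones, so their hemispheres were closest to each other and the hemispheres of P45, P61 and P71 were further apart.

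**Figure D2:**
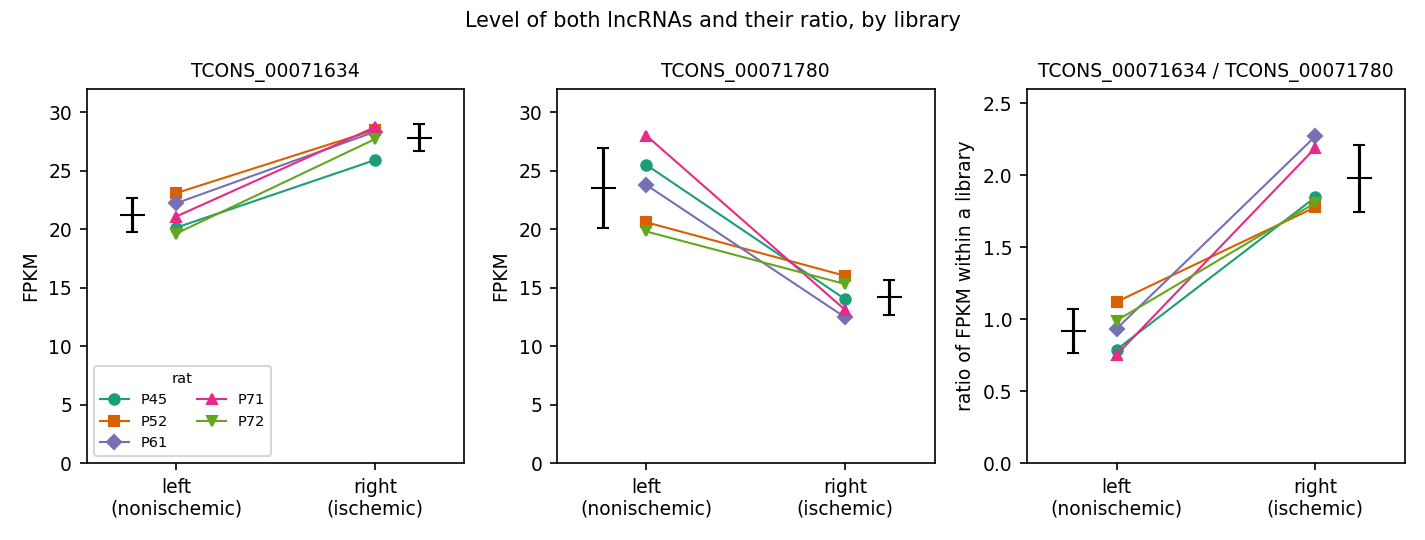
Level of TCONS_00071634 and TCONS_00071780 in FPKM and the ratio of the former to the latter within a library, in the left (nonischemic) and right (ischemic) hemisphere of 5 rats. Coloured points joined by a line are the hemispheres of 1 rat, and the black bar beside each side is the mean ± SD of 5 libraries. TCONS_00071634 lies between 19.6 and 23.1 FPKM on the left and between 25.9 and 28.7 on the right, TCONS_00071780 between 19.8 and 28.0 on the left and between 12.5 and 16.0 on the right, and the ratio between 0.753 and 1.12 on the left and between 1.78 and 2.27 on the right.

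The order of the mean levels, from high to low, was TCONS_00071634 in the ischemic hemisphere (27.8 FPKM), TCONS_00071780 in the nonischemic (23.5 FPKM), TCONS_00071634 in the nonischemic (21.2 FPKM) and TCONS_00071780 in the ischemic hemisphere (14.2 FPKM). The second and the third of these did not differ beyond their spread, since the nonischemic range of TCONS_00071634 lay almost wholly within that of TCONS_00071780. The first and the second overlapped as well, through the nonischemic library of P71 (28.0 FPKM). In the ischemic hemisphere the lncRNAs were apart by a wide margin. The ratio of TCONS_00071634 to TCONS_00071780 within a library, which does not depend on how libraries were scaled, was 0.918 ± 0.150 on the nonischemic and 1.98 ± 0.233 on the ischemic side (SD, n = 5 each). It was higher on the ischemic side in 5 of 5 rats, by between 0.67 and 1.54 on the log2 scale. That direction is set by the choice of the pair for opposite changes, so nothing is read from it.

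To read these differences against the whole table, the share of transcripts that moved in the same way was counted among the 20936 tested. All 5 ischemic libraries lay above all 5 nonischemic ones for 6.41% of transcripts, as they did for TCONS_00071634, and below them for 3.62%, as for TCONS_00071780. The ischemic hemisphere was the higher one in all 5 rats for 13.7% and the lower one in all 5 rats for 11.1%. Since the lncRNAs were chosen on this contrast, nothing is read from their belonging to these shares. The median change of all transcripts tested was -0.01 on the log2(FPKM + 0.1) scale, and 0.04 when FPKM was rescaled to TPM.

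Both were among the more abundant assembled lncRNAs. By mean FPKM over the 10 libraries TCONS_00071634 (24.5 FPKM) ranked 35 and TCONS_00071780 (18.9 FPKM) ranked 40 of 1924, where the median was 0.551 FPKM and 66 assembled lncRNAs reached a mean of 10 FPKM. Of all 32166 transcripts, 85.0% had a lower mean than TCONS_00071634 and 81.4% a lower one than TCONS_00071780. The order of the side means turned with the side, although the nonischemic levels of the lncRNAs overlapped and they were chosen for opposite changes. In the nonischemic libraries TCONS_00071780 ranked 36 and TCONS_00071634 ranked 39, and in the ischemic libraries they ranked 48 and 32. The assembled lncRNAs next in level to TCONS_00071634 were TCONS_00069230, TCONS_00005955 and TCONS_00034083 above it (26.4 to 26.9 FPKM) and TCONS_00008733, TCONS_00012306 and TCONS_00100272 below it (24.5 to 19.2 FPKM). Those next to TCONS_00071780 were TCONS_00014158, TCONS_00100272 and TCONS_00012306 above it (19.0 to 21.4 FPKM) and TCONS_00030451, TCONS_00034762 and TCONS_00070544 below it (18.8 to 18.1 FPKM). In every one of these neighbours the libraries of the hemispheres overlapped. Over all transcripts tested the sides were apart for only 6.41% (ischemic above) and 3.62% (ischemic below). Both lncRNAs were chosen on this contrast, so nothing is read from how they differ here from their neighbours.

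**Figure D3:**
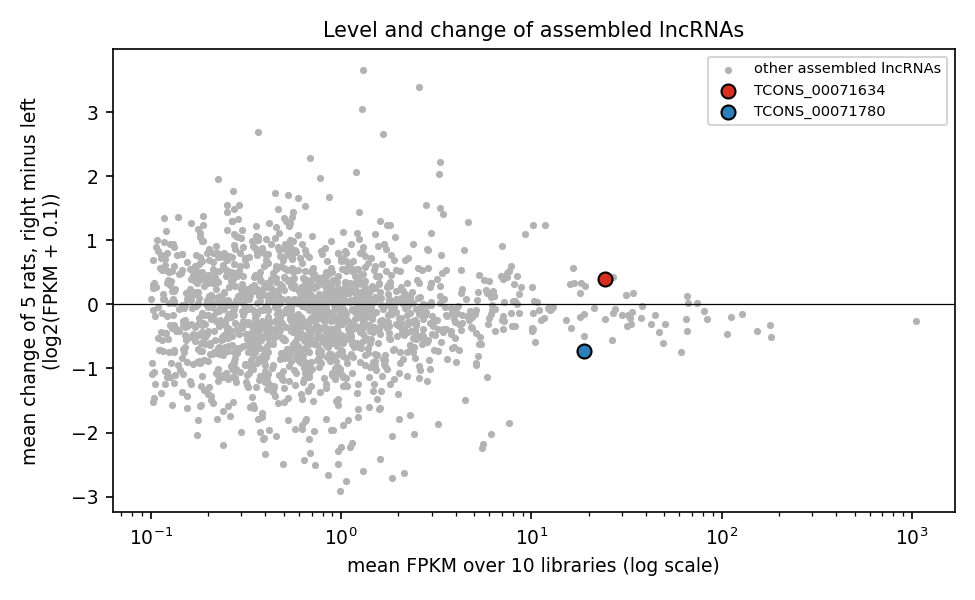
Mean level over 10 libraries (FPKM, log scale) and mean change of 5 rats (right minus left, log2(FPKM + 0.1)) of the assembled lncRNAs with a mean of at least 0.1 FPKM, each grey point being 1 lncRNA. TCONS_00071634 (red, 24.5 FPKM, change 0.39) and TCONS_00071780 (blue, 18.9 FPKM, change -0.72) lie in the sparse right part of the plot, on either side of 0.

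The rats agreed more closely for TCONS_00071634 than for TCONS_00071780. Among the 5980 transcripts with a mean between 10 and 40 FPKM the median SD of the change between rats was 0.26 on the log2(FPKM + 0.1) scale. Only 2.89% of them had a smaller SD than the 0.078 of TCONS_00071634, and of the 46 assembled lncRNAs in that range 0 had a smaller one. For TCONS_00071780, with an SD of 0.34, 65.2% of these transcripts had a smaller SD. Of the 46 assembled lncRNAs, however, only 13 had a smaller one, and the median SD of the 46 was 0.48. The spread within a side was also smaller for TCONS_00071634. The coefficient of variation of TCONS_00071634 was 6.75% (nonischemic) and 4.09% (ischemic), against medians of 11.8% and 16.0% for transcripts of that range, and that of TCONS_00071780 was 14.5% and 10.4%. These values describe the lncRNAs, since a choice on the change favours transcripts whose rats agree. Of the 46 assembled lncRNAs, 4 were higher in the ischemic hemisphere of all 5 rats and 5 were lower in all 5, the lncRNAs described here among them. Over all transcripts tested, 13.7% were higher in all 5 rats and 11.1% were lower, so these counts do not set the 46 apart.

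TCONS_00071634 shares its locus with 2 other assembled transcripts, and how reads were divided between them bears on its level. TCONS_00068833 (chr3:162946997-162955867) has 4 exons and 2397 nt. It contains 2144 of the 2165 exonic bases of TCONS_00071634 (99.0%) and differs from it by a further exon of 214 nt, by a second exon of 95 instead of 93 nt and by where it begins and ends. TCONS_00071634 holds 21 exonic bases that no other listed transcript covers. TCONS_00072163 (chr3:162955461-162956967) has 2 exons and 1327 nt, begins upstream and shares 53 exonic bases with TCONS_00071634. Cufflinks, the program that gave the levels, estimates how the reads of such overlapping transcripts divide between them, so the values of these 3 transcripts are not independent.

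Nearly all of the summed level of these 3 listed transcripts was assigned to TCONS_00071634. Its share of the summed FPKM was 93.7% in P45, 94.0% in P52, 96.8% in P61, 96.2% in P71 and 95.6% in P72 in the nonischemic libraries. In the ischemic libraries it was 96.7% in P45, 95.8% in P52, 97.2% in P61, 96.7% in P71 and 96.9% in P72. The share was higher on the ischemic side in 5 of 5 rats, by 1.37 ± 1.06 percentage points (SD, n = 5; 1.63 without P61 and 1.59 without P71), but the libraries of the sides overlapped. The sum over the 3 transcripts was 22.3 ± 1.54 FPKM (nonischemic) and 28.8 ± 1.21 FPKM (ischemic, mean ± SD of 5 libraries). Its change on the log2(FPKM + 0.1) scale was 0.37 with an SD of 0.083 and a range over the rats from 0.28 to 0.48, close to that of TCONS_00071634 alone, and it was 0.38 without P61 and 0.35 without P71. The sum thus differed between the sides by about as much as TCONS_00071634. Since TCONS_00071634 made up at least 93.7% of it in every library, the sum follows that lncRNA and is no separate observation. The share, too, has the chosen lncRNA as its numerator.

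The 2 overlapping transcripts were at low levels and did not pass the test between the hemispheres. TCONS_00068833 was at 1.13, 1.11, 0.260, 0.499 and 0.370 FPKM in the nonischemic libraries of P45, P52, P61, P71 and P72. In the ischemic libraries of these rats it was at 0.305, 0.839, 2.06e-05, 0.452 and 0.629 FPKM. The sides overlapped, and in the ischemic library of P61 almost nothing was assigned to it. Its change on the log2(FPKM + 0.1) scale was -0.66 (standard error 0.44, adjusted p = 0.388 in limma's paired fit over all transcripts), with 1 of 5 rats higher on the ischemic side. That value depended on the rats and on the pseudocount. It was -0.36 without P61, -0.42 without P45, -0.80 without P71 and -0.98 without P72, and -1.28 with a pseudocount of 0.01 and -0.21 with one of 1. TCONS_00072163 was at 0.384 ± 0.126 FPKM (nonischemic) and 0.524 ± 0.208 FPKM (ischemic, mean ± SD of 5 libraries), a change of 0.34 (standard error 0.36, adjusted p = 0.589 in the same fit), with 4 of 5 rats higher on the ischemic side. It too moved with the rats, from 0.15 without P45 to 0.63 without P72 (0.25 without P61 and 0.30 without P71), and it was 0.13 with a pseudocount of 1. In that fit an adjusted p under 0.05 with a higher ischemic level was reached by 5.52% of all transcripts tested and with a lower one by 2.19%, and 0 of these 2 transcripts reached it, nor did either reach an unadjusted p under 0.05. Of all calls 71.6% were upward (1155 against 459 downward), and 81.7% when FPKM was rescaled to TPM. This split rested on single rats as well, with 94.6% upward without P45 (262 against 15), 89.4% without P61 (373 against 44) and 64.8% without P72 (1156 against 629).

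**Figure D4:**
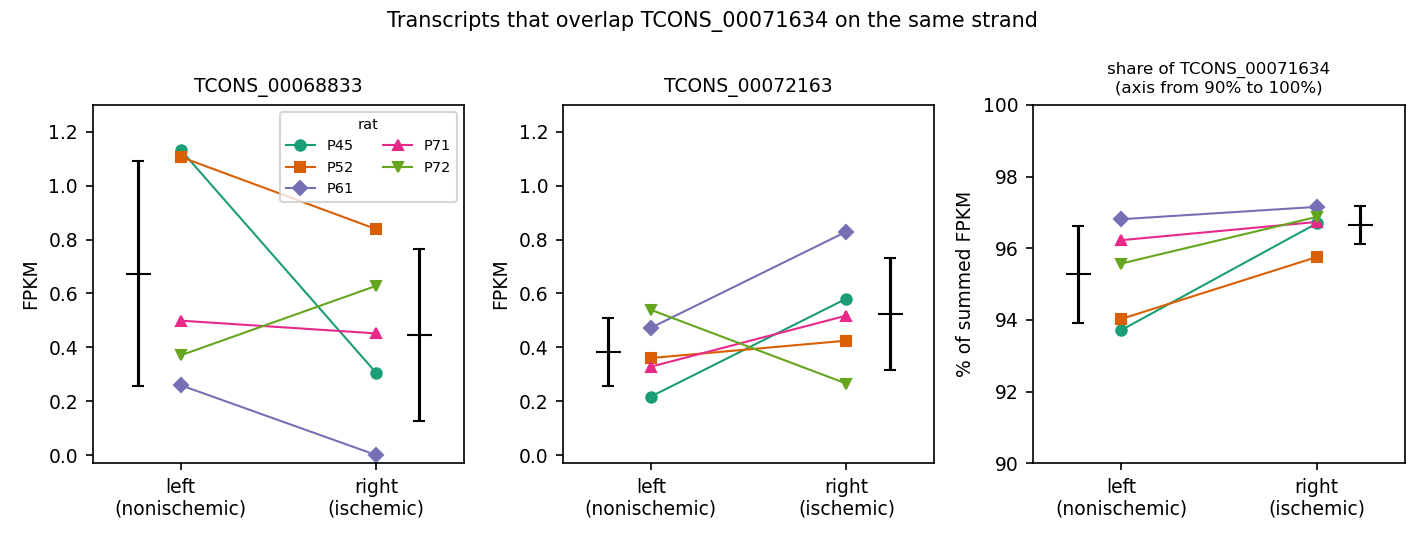
Level in FPKM of the listed transcripts that overlap TCONS_00071634 on its strand, and the share of TCONS_00071634 in the summed FPKM of itself and these transcripts (axis from 90% to 100%), by hemisphere and rat. Lines join the hemispheres of 1 rat, and the black bar is the mean ± SD of 5 libraries. Lines cross in the first and second panel, where the sides overlap, and in the third all 5 shares lie between 93.7% and 97.2% and are higher on the right.

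Transcripts with a like pattern were sought among the 15881 other transcripts with a mean of at least 1 FPKM, 592 of them assembled lncRNAs, by Pearson's r on log2(FPKM + 0.1) over the 10 libraries. These points share their rats, their libraries and the difference between the sides, so the values are a description, and r is also given after the mean of each side was removed. TCONS_00071780 was most like ENSRNOT00000000662 (r = 0.99, and 0.95 with side means removed). That transcript was at 62.4, 48.8, 64.3, 65.5 and 46.5 FPKM in the nonischemic libraries of P45, P52, P61, P71 and P72 and at 33.2, 39.5, 30.1, 32.1 and 37.1 FPKM in their ischemic libraries. As in TCONS_00071780, P52 and P72 were lowest among the nonischemic and highest among the ischemic libraries. The next was ENSRNOT00000044595 (r = 0.98, and 0.88 with side means removed). The 5 transcripts most like TCONS_00071780 had r between 0.967 and 0.990, and with side means removed between 0.823 and 0.950.

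For TCONS_00071634 the likeness to its 5 closest transcripts rested more on the sides. Its closest transcripts were ENSRNOT00000011130 (r = 0.96, and 0.66 with side means removed), which lay between 6.13 and 8.75 FPKM on the nonischemic and between 13.2 and 18.5 FPKM on the ischemic side, and ENSRNOT00000066391 (r = 0.96, and 0.67 with side means removed), at 5.40 ± 0.465 and 7.79 ± 0.57 FPKM (SD, n = 5 each). Over its 5 closest transcripts r was between 0.956 and 0.962, and with side means removed between 0.628 and 0.746. Among all transcripts compared, the highest r with side means removed was 0.93 for TCONS_00071634, with a transcript outside these 5. For TCONS_00071780 it was 0.95. Such values are the highest of many and are not set against chance here. No assembled lncRNA was among the 5 closest of either. No gene names are paired with these identifiers in the files used here. Between TCONS_00071634 and TCONS_00071780 themselves r was -0.87 over the 10 libraries, which the choice of the pair for opposite changes sets, and -0.07 with side means removed. Within the sides a library that was high for one was thus not systematically low for the other.

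At the other end stood TCONS_00074111, named here after its values were seen. Of the 592 assembled lncRNAs it had the lowest r with TCONS_00071780 (-0.97, and -0.90 with side means removed) and the fourth lowest of all 15881 transcripts. It is on the minus strand of chromosome 3 at chr3:162845110-162848021 and has 2 exons, and it lies 98954 bases from TCONS_00071634, with which its r was 0.78. In the nonischemic libraries of P45, P52, P61, P71 and P72 it was at 0.862, 1.59, 0.645, 0.416 and 2.74 FPKM. In their ischemic libraries it was at 4.67, 4.62, 8.25, 5.80 and 3.53 FPKM. The rats ranked in nearly the reverse of their order for TCONS_00071780, and P72 had the hemispheres closest to each other.

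**Figure D5:**
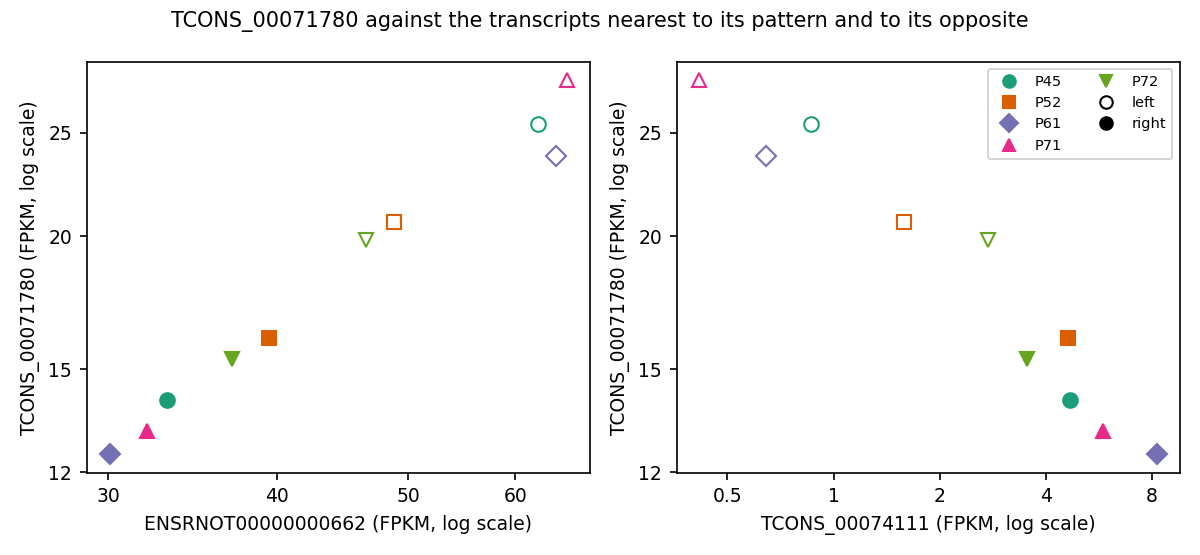
TCONS_00071780 against ENSRNOT00000000662 and against TCONS_00074111, each in FPKM on log axes, over 10 libraries. Open symbols are left (nonischemic) and filled symbols right (ischemic) libraries, and shape and colour give the rat. The points rise together in the first panel (r = 0.99 on log2(FPKM + 0.1)) and run opposite in the second (r = -0.97), also within the sides.

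The tissue could be checked only in small part, because of 32 cell type markers 2 could be matched to the table, through identifiers that the study pairs with symbols. The study prints these identifiers in its list of noncoding transcripts that differ between the sides, where both are entered as processed transcripts, so their difference between the sides comes with how they were found and is no independent check. Neither marks neurons or astrocytes. A transcript of Cd93, a receptor of endothelial and myeloid cells, was at 4.61 ± 1.64 FPKM (nonischemic) and 20.4 ± 8.01 FPKM (ischemic, mean ± SD of 5 libraries), with its highest ischemic level, 33.2 FPKM, in P61 and its lowest, 11.7 FPKM, in P71. A transcript of Tlr13, a receptor for microbial RNA in microglia and macrophages, was at 0.617 ± 0.242 and 1.77 ± 0.411 FPKM. Both were higher on the ischemic side in 5 of 5 rats, and the part of such cells in the changes of the lncRNAs was not tested.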

How the data were processed

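Libraries of 5 left and 5 right hemispheres were compared. The authors mapped the reads to rn5 with TopHat, reconstructed transcripts with Cufflinks and Ensembl annotation, and deposited FPKM per transcript and library, without pooling. The deposited list of assembled lncRNAs holds positions and exon numbers. Whether the libraries kept strand is not given in the sources used here.

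Changes were right minus left differences of log2(FPKM + 0.1) within a rat. Where the mean FPKM was 0.1 or more, limma 3.58.1 in R 4.3.3 (eBayes with a trend) was fitted with the rat as a block and Benjamini-Hochberg adjustment over all 20936. Both sides come from 1 rat, which gives the pairing. The deviations of both sides from the side means correlated at -0.13 to 0.18 in the 5 rats. The fit was tested on simulated data. Descriptions and figures used Python 3.11.15.

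The lncRNAs and the lists were chosen with earlier results of these data known. Transcripts named are the 2 lncRNAs, those overlapping or next to them on the chromosome or in level, and the 5 most like each, of which at most 2 Ensembl identifiers each are printed, besides TCONS_00074111, chosen after its values were seen. Alternatives were other pseudocounts, filters, scalings, no block, no moderation, no trend (chosen after seeing the data) and leaving out each rat.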

Additional observations from a re-analysis of the deposited data

Results flagged for a closer look

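In each of 24 groups of 5 libraries (both sides of the transcripts, sums and ratios described by library), the distance of the highest or the lowest library from its neighbour was divided by the range of the group. In 1 group it passed the critical value of 0.71, and chance gives that in about 1 group in 20. The ischemic library of P61 was the highest for the transcript of Tlr13, 2.49 FPKM, with the others between 1.49 and 1.72 FPKM (ratio 0.766). No library of TCONS_00071634, of TCONS_00071780 or of the transcripts overlapping TCONS_00071634 passed it.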

How the results depend on the processing

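The change of TCONS_00071634 stayed between 0.36 and 0.45 and that of TCONS_00071780 between -0.81 and -0.63 on the log2 scale under 9 alternatives each (pseudocounts of 0.01 and 1, TPM, median of ratios and leaving out each rat). Neither overlapping transcript passed the threshold under any of 13 alternatives, with changes from -1.28 to -0.21 and adjusted p from 0.204 to 0.692 for TCONS_00068833, and with changes from 0.13 to 0.63 and adjusted p from 0.266 to 0.873 for TCONS_00072163. A minimum mean of 1 FPKM removed both. The number of transcripts called in the paired fit, 1614, was 2148 with no replicate block, 687 with no filter on low values, 521 without moderation of the variance and 982 without a trend, where 87.2% were upward. It ranged from 277 to 1785 with 1 rat left out (277, 468, 417 and 882 when that rat was P45, P52, P61 and P71). The cause was not tested. Leaving out the block changed no call of the overlapping transcripts. Of the 5 transcripts most like TCONS_00071634, 0 were among its 5 closest by Spearman's rho or with side means removed, and for TCONS_00071780 it was 1 of 5 by either. By rho the latter count depends on a tie, since ENSRNOT00000000662 and another of the 5 had the same rho of 0.988. Read counts were not used here, so counting error is not known.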
